A study of Mus musculus with 7 samples.

Results

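The regions described here are 96 runs of closely spaced Six4 peaks on the autosomes of mouse muscle cells, which together hold 546 of the 58528 peaks in the list. They were chosen by their spacing alone. Peaks were put in order along each chromosome, neighbours with no more than 5000 bp between the end of the first and the start of the next were chained, and chains of at least 5 peaks were kept. Chromatin immunoprecipitation followed by sequencing (ChIP-seq) of 1 library gave the list: anti-Six4 in C2C12 cells, a mouse myoblast line, that stably carried a control short hairpin RNA (shNS) and had been differentiated for 24 h. The series describes 7 libraries with no replicate among them, and the other 6 (Six4 knockdown, Flag-tagged Six4, parental anti-Flag, rabbit IgG and 2 inputs) were not analysed here. How many of the 546 peaks depend on Six4 is therefore not known, and no value below has a replicate. Whether the shNS line is 1 clone is not given in the sources used here.

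Six4 is a transcription factor that binds DNA through a homeodomain. It binds MEF3 sites, short DNA elements found in the control regions of many muscle genes, and takes part in the program that turns myoblasts into contractile myotubes. Regulatory regions of genes that define a cell type often consist of several separate elements spread over many kilobases, so neighbouring peaks of a factor can belong to a single control region or to several. The genes at the positions below were not identified, because no annotation or sequence of the files' build, mm9, was used here.

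A run was typically a stretch of about 13 kb in which a small part of the DNA lay under peaks. The span, from the first base of the first peak to the last base of the last, had a median of 13014 bp with quartiles of 10062 and 15389 bp. The shortest run spanned 4726 bp and the longest 30009 bp, and 10 runs reached 20 kb. Peaks covered a median of 15.6% of the span, from 8.34% to 34.9%. Of the 96 runs, 60 had exactly 5 peaks, 19 had 6, 10 had 7 and 7 had 8 to 10. All members together covered 217.5 kb, which was 0.945% of the length under autosomal peaks, close to their 0.956% share of autosomal peaks by number.

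The 2 largest runs had 10 peaks, more than any other. The one on chromosome 1 reached from 90127038 to 90157046. Its peaks measured, in genome order, 390, 898, 808, 224, 191, 350, 370, 673, 570 and 752 bp. The 4 peaks at its distal end stood on lines 7632, 11269, 8206 and 11736 of the list, whereas the first 6 stood on lines 17720 to 30178. The list carries no score. Its order is the only other property of a peak besides position and width, and the sources used here do not say by what quantity the authors ordered it. On chromosome 12, from 52851490 to 52876944, the 10 peaks measured 216 to 869 bp and 4 of them belonged to the first 10% of lines (the first 5852). The distal end again held the earlier lines, with lines 5019, 5302, 3626 and 3271 in the sixth to ninth peak, against 7898 to 22638 in the first 5. The last peak, on line 16570, broke this order.

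**Figure D1:**
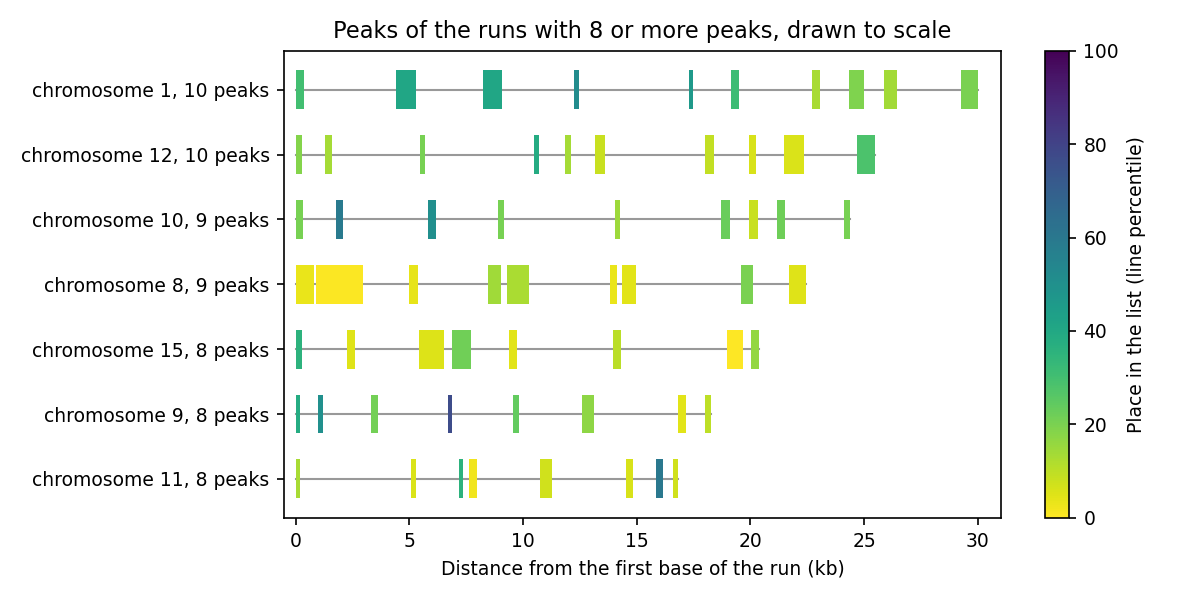
Peaks of the 7 runs with 8 to 10 peaks, drawn to scale along the distance from the first base of the run (kb). Colour gives each peak's place in the list as a line percentile, yellow for the top of the list. The run on chromosome 8 has the most yellow peaks and the longest peak, 2080 bp, while the run on chromosome 10 is made of narrow peaks of 232 to 414 bp.

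The 2 runs of 9 peaks spanned 22422 bp on chromosome 8 and 24368 bp on chromosome 10. They differed in peak width, covered share and place in the list. On chromosome 8, from 87499967 to 87522388, the peaks measured 304 to 2080 bp, covered 31.4% of the span and stood on lines 421 to 11772. In that run 6 of the 9 peaks were in the first 10% of lines, the highest number in any of the 96. On chromosome 10, from 24596958 to 24621325, the peaks measured 232 to 414 bp, covered 11.8% of the span and stood on lines 4990 to 34720, with 1 peak in the first 10% and 2 in the last 50% of lines. The first peak, the last and 1 between them stood on the consecutive lines 11926, 11927 and 11928.

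The 3 runs of 8 peaks lay on chromosomes 15, 9 and 11. On chromosome 15, from 102993547 to 103013927, a peak of 719 bp stood on line 155 and a peak of 1084 bp on line 3171, and peaks covered 21.4% of the span. On chromosome 9, from 104097989 to 104116247, the peaks measured 185 to 494 bp. Line numbers were 22505 and 29399 in the first 2 peaks and 2598 and 5747 in the last 2. The latest line of the run, 45251, stood between them, so there was no steady order. On chromosome 11, from 3057761 to 3074556, the run began 0.0270 Mb after the first peak of the whole chromosome. Its peaks were narrow, 165 to 518 bp, and yet 5 of the 8 were in the first 10% of lines, including a peak of 333 bp on line 1191. It was the only run within 1 Mb of the first peak of its chromosome, and 3 runs lay within 1 Mb of the last peak.

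Members stood early in the list. A line percentile is the line number as a percentage of all lines, so 0 is the top. The median member was at 26.5 (quartiles 14.8 and 44.5) and the median of the 56569 other autosomal peaks at 49.8 (24.9 and 74.8). Members were earlier in the median on 18 of 19 autosomes. The exception was chromosome 13, with a median of 69.9 over 20 members against 54.5 over the others. In the last 50% of lines there were 114 members, 20.9% (exact Clopper-Pearson 95% interval 17.5 to 24.5%), beside 49.5% of all autosomal peaks. In the first 10% of lines there were 84 members, 15.4% (12.5 to 18.7%), beside 10.2% of all autosomal peaks. These intervals, and those below, cover counting error only, and peaks of a run share their neighbourhood. The rule reads positions from the same list whose order is described here, so these values are a description and no test was made. In this list, peaks of late lines are scarce up to 5 kb from peaks of early lines, and the part of that scarcity in the early place of the members was not tested.

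Peaks of larger runs stood earlier in the list, though not at every step. Peaks with no neighbour within 5000 bp had a median line percentile of 54.4, peaks in pairs 44.7, in runs of 3 37.8 and in runs of 4 30.2. The values then were 28.2 in runs of 5, 30.2 in runs of 6, 25.5 in runs of 7 and 15.6 in runs of 8 to 10. The share of peaks in the last 50% of lines fell along the same series from 54.1% for peaks alone to 9.68% (3.63 to 19.9%, 6 of 62 peaks) in runs of 8 to 10. The share in the first 10% of lines did not follow a single direction. It was 10.5% for peaks alone, 8.75% in pairs, 15% in runs of 5, 7.02% in runs of 6 and 35.5% (22 of 62) in runs of 8 to 10. Those 62 peaks came from only 7 runs, which held from 0 to 6 peaks of the first 10% each. Just outside the limit of 5 peaks were 280 runs of 4, with a median width of 320 bp and a median span of 9072.5 bp. Just inside were the 60 runs of 5, with 316.5 bp and 11502 bp.

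**Figure D2:**
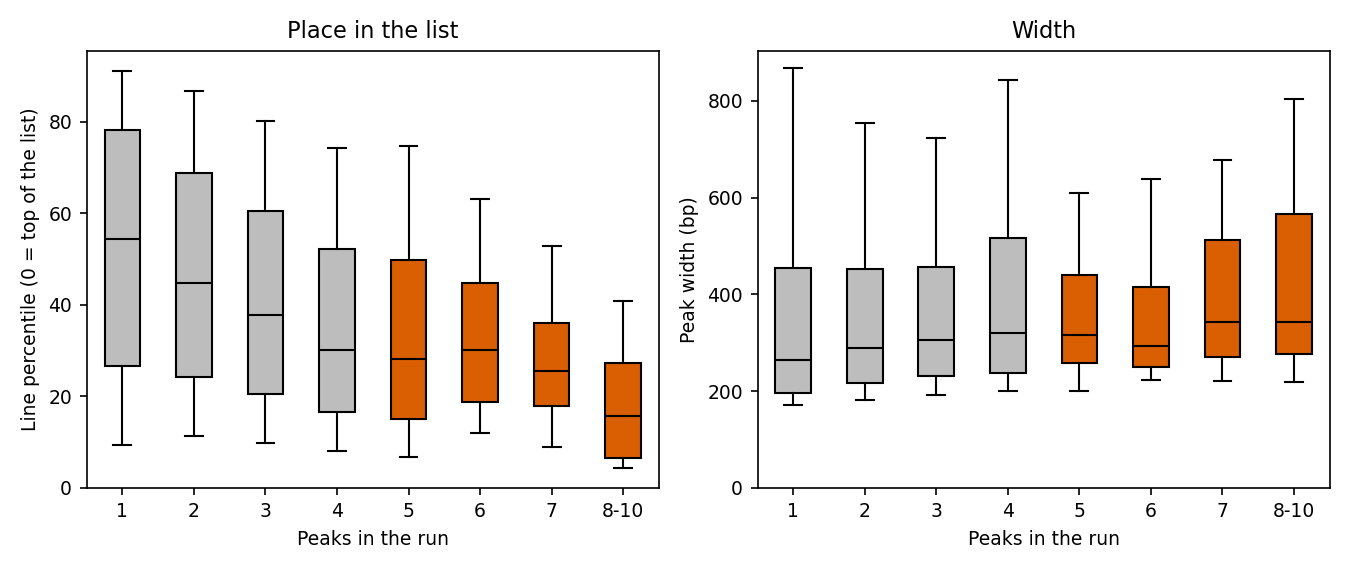
Line percentile (left) and width in bp (right) of autosomal peaks by the number of peaks in their run. Boxes are quartiles with the median, whiskers reach to the 10th and 90th percentiles, and the runs described here are in orange. The median line percentile goes from 54.4 for peaks alone to 15.6 in runs of 8 to 10, while the median width goes from 264 to 343 bp.

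By width, members were neither the shortest nor the longest peaks. Their median was 318.5 bp (quartiles 255.2 and 448.8), against 275 bp (204 and 456) for the other autosomal peaks, and the members' median was higher on 17 of 19 autosomes. When runs were formed from the first 50% of lines only, the order turned, with 365 bp for 259 members and 405 bp for the others. The shortest width in the list, 165 bp, occurred in 5 members (0.916%) and in 5.02% of the others. Peaks of at least 1 kb numbered 15 among the members, 2.75% (1.55 to 4.49%), beside 6.46% of all autosomal peaks. The share among members was the smaller on 16 of 19 autosomes, but only 7 autosomes had any member of this width. The share depended on the size limit. Runs of 4 held 80 peaks of at least 1 kb among 1120 (7.14%, 5.70 to 8.81%) and runs of 5 held 10 among 300 (3.33%, 1.61 to 6.04%). With a limit of 4 peaks the share among members was 5.70%, beside 6.49% of the other peaks.

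Among peaks of similar place in the list, early members were narrower than other early peaks. In the first 10% of lines the median width was 478 bp in 84 members (quartiles 334.5 and 710.8) and 803 bp in 5720 other autosomal peaks (543 and 1120). Of these, 10 members (11.9%, interval 5.86 to 20.8%) and 1906 others (33.3%) reached 1 kb. From 10 to 20% of the list the medians were 364 and 578 bp, from 20 to 30% they were 339 and 376 bp, and from 30 to 40% they were 292 and 302 bp. The order then turned. In the next 3 steps of 10% the members had medians of 283, 281 and 257.5 bp and the others 262, 241 and 220 bp. From 70 to 80% the medians were 209 bp in 22 members and 213 bp in the others. The last 2 steps held 7 and 16 members, with medians of 339 and 278 bp against 207 and 203 bp in the others. Runs of 2 to 4 lay between the extremes. In the first 10% of lines, peaks alone had a median of 850 bp, peaks in runs of 2 to 4 had 673.5 bp and members had 478 bp. From 10 to 20% of the list these values were 666.5, 467.5 and 364 bp.

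**Figure D3:**
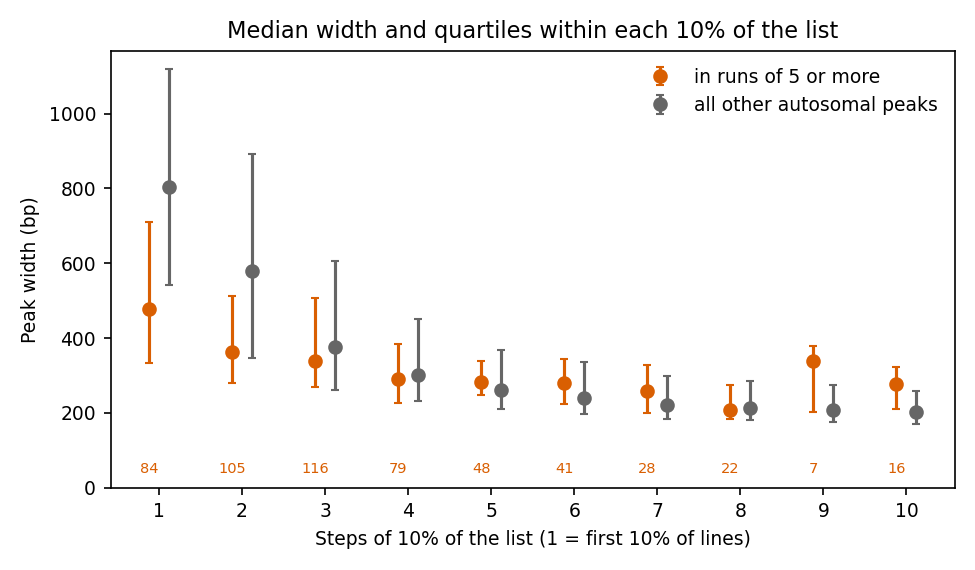
Median width in bp (points) with quartiles (bars) of members and of all other autosomal peaks within each 10% of the list, with the number of members in orange digits. In the first 10% the medians are 478 and 803 bp, from 30 to 40% they are 292 and 302 bp, and the last 2 steps have 7 and 16 members.

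Peaks of a run usually came from several parts of the list, though neighbours in a run stood closer in it than other neighbours did. The range of line percentile inside a run had a median of 41.6, from 8.14 to 91.4. This range was not computed for other sets of peaks. No run lay wholly in the first 10% of lines, and 1 lay wholly in the last 50%. At least 1 peak of the first 10% occurred in 42 runs, with 1 such peak in 20 runs and 2 to 6 in 22. At least 1 peak of the last 50% occurred in 64 runs. There were 20 runs with both kinds, 22 with early peaks and no late ones, 44 with late peaks and no early ones, and 10 with neither. Early peaks made up more than 50% of the members in 9 runs, and late peaks in 13. By the same limits, 10.2% of all autosomal peaks were early and 49.5% were late. How many runs of each kind randomly drawn peaks would give was not computed. These counts alone therefore do not show whether runs with early or late peaks were many or few. The longest peak of a run was 2.41 times as wide as its shortest in the median, from 1.12 to 9.21 times.

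Single runs show these kinds of make-up. The run wholly of late lines lay on chromosome 13 from 6641941 to 6648466, where 5 peaks of 201, 270, 222, 510 and 173 bp stood on lines 45889, 53943, 45390, 30880 and 40259. The run with the lowest median line percentile, 4.18, lay on chromosome 17 from 84378330 to 84390625 and was picked out after its values were seen. Its 5 peaks measured 682, 365, 317, 427 and 875 bp, and their lines fell from 14693 through 4012, 2446 and 1503 to 273. The earliest line of any member, 136, belonged to a peak of 639 bp in a run of 6 on chromosome 15 from 102170722 to 102193436. The other 5 peaks of that run stood on lines 7426 to 39669, so a peak near the top of the list lay among peaks from far below it.

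**Figure D4:**
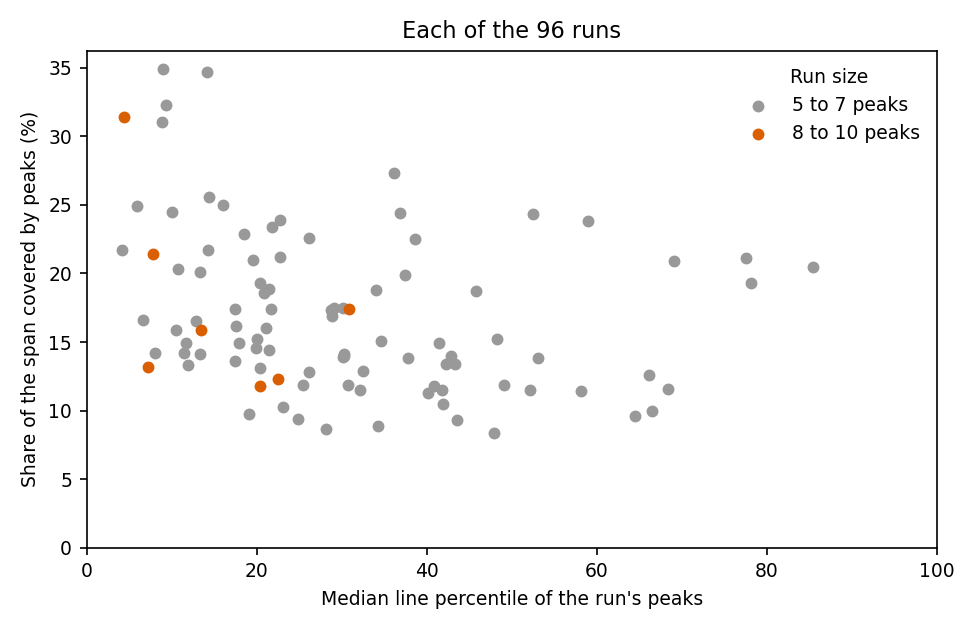
Each of the 96 runs by the median line percentile of its peaks and the share of its span under peaks (%). Runs of 8 to 10 peaks are in orange. The runs with over 30% of the span covered all have a median line percentile under 20, and the runs past 60 on the horizontal axis cover between 9.63 and 21.1% of their span.

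The share of the span under peaks depends on both the width and the spacing of the peaks. The most covered were a run at 70567420 to 70581257 of chromosome 14 (34.9%), a run at 122493035 to 122501938 of chromosome 1 (34.7%) and another at 102793799 to 102812819 of chromosome 15 (32.3%). The run on chromosome 14 held peaks of 656, 386, 1382, 2065 and 335 bp. The run on chromosome 15 had 7 peaks of 486 to 1259 bp, and its median of 973 bp was the highest of all runs. The least covered lay at 121331546 to 121347511 of chromosome 14 (8.34%) and, on chromosome 1, at 184025374 to 184046133 (8.66%) and 36225542 to 36239998 (8.87%). Their peaks measured 204 to 343 bp, 208 to 350 bp and 222 to 298 bp. No peak of these 3 runs exceeded 350 bp, whereas the runs named as most covered on chromosomes 14 and 1 held peaks of 335 and 285 bp beside their long ones.

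The longest runs by span were those on chromosomes 1, 12 and 10 with 10, 10 and 9 peaks, described above. The shortest was on chromosome 12 from 81975251 to 81979976, with 5 peaks of 180 to 269 bp in 4726 bp. Its middle peak, 180 bp long, stood on line 58492 of 58528. The run on chromosome 13 described above followed with 6526 bp. The next, on chromosome 11 from 18913800 to 18920817, spanned 7018 bp and had peaks of 239, 339, 500, 602 and 493 bp. The last 3 of these were on lines 5218, 4717 and 2566, the first 2 on lines 22738 and 40198.

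Inside the runs, gaps between neighbours were spread over the whole range that the rule allows. The 450 gaps had a median of 2351.5 bp, with quartiles of 939.8 and 3847 bp and extremes of 60 and 4999 bp. Gaps under 500 bp made up 14.7% (66), and gaps of 4000 to 5000 bp made up 23.1% (104). In runs of 2 to 4 peaks the 10456 gaps had a median of 1615.5 bp, and 26.9% were under 500 bp. Gaps under 500 bp thus made up a smaller share of the gaps inside the longer runs. Neighbours in a run stood 13.2 percentiles apart in the list in the median, against 17.5 in runs of 2 to 4 and 25.3 for neighbours over 5000 bp apart. Pairs of neighbours that were both in the first 10% of lines were 6% of the 450 (27 pairs), 2.71% in runs of 2 to 4 and 1.23% of neighbours farther apart. Members as a whole stood early in the list, and the part of that in these differences between kinds of neighbours was not tested. Pairs of a first-10% and a last-50% peak occurred 8 times in the 450 (1.78%), 5 times at up to 2 kb and 3 times beyond. Such pairs were 2.61% in runs of 2 to 4 and 9.10% of neighbours over 5000 bp apart.

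Early and long peaks stood at the ends of runs about as often as any peak did. Of the 546 places, 35.2% are at the end of a run. The earliest line was at an end in 34 of 96 runs (35.4%), and the longest peak in 35 (36.5%). End peaks had a median width of 306.5 bp and a median line percentile of 30.2, and inside peaks had 323 bp and 24.9. The earliest peak was also the longest in 31 of the 96 runs. Runs had 5 peaks in the median, and the count for line and width unrelated inside runs was not computed.

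Around the runs, the rule kept every gap to the next peak above 5000 bp. All 46190 gaps of that size between autosomal neighbours had a median of 19265 bp. The 192 gaps at the edges of runs had a median of 10138.5 bp, and 94 were no longer than 10 kb. Both edges were that close in 22 runs. The longest edge gap was 241.5 kb, and 12 exceeded 50 kb. The threshold fell among many gaps of about its own size: 58 gaps inside runs were within 500 bp below it, and 16 edge gaps were within 500 bp above it. Apart from the run's own peaks, a member had a median of 49 autosomal peaks within 500 kb on either side, against 41 for the other autosomal peaks (quartiles 36 and 65 against 27 and 54). Runs were not limited to crowded regions. The 1 Mb window that held a run's midpoint had 52 peaks in the median, the run's own included, and 6 runs lay in windows with 20 peaks or fewer. With the run's own peaks counted, 47 of the 96 runs (49.0%) lay in the 240 windows with 55 or more peaks, which held 26.9% of autosomal peaks. The choice of runs by close spacing fixes part of this difference.

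Chromosomes 15 and 1 carried 29 of the 96 runs. Chromosome 15 had 16 runs (16.7% of runs, 5.74% of autosomal peaks) and chromosome 1 had 13 (13.5% and 7.09%). On chromosome 15, 2.81% of peaks were members and on chromosome 1, 1.88%, whereas on chromosomes 7 and 16 the shares were 0.191% and 0.231%, with 1 run each. The order of chromosomes by runs was not their order by peak density. Chromosome 11, the densest at 35.3 peaks per Mb, had 5.89 runs per 100 Mb. Chromosome 15 had 32.7 peaks per Mb and 16.0 runs per 100 Mb, and chromosome 1 had 20.9 peaks per Mb and 6.70 runs per 100 Mb. Chromosome X, which the rule leaves out, had 2 runs of 5 peaks, from 11378843 to 11392268 and from 45754262 to 45770106. Their median line percentiles were 45.3 and 45.1.

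**Figure D5:**
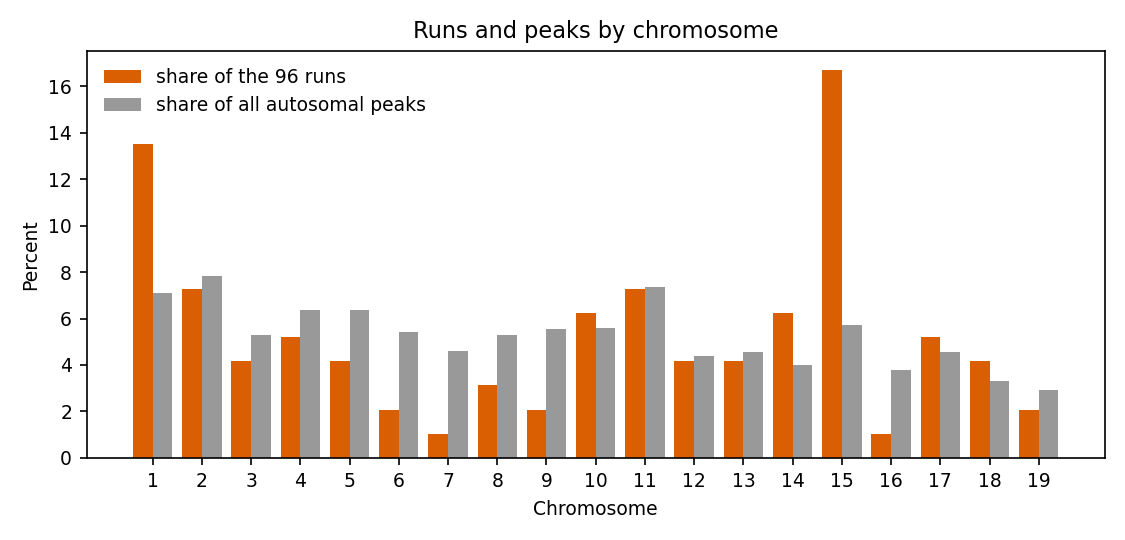
Share of the 96 runs and of all autosomal peaks on each autosome, in percent. Chromosome 15 has 16.7% of the runs and 5.74% of the peaks, and chromosome 1 has 13.5% and 7.09%. Chromosomes 7 and 16 have 1.04% of the runs each.

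A few runs were neighbours of each other. On chromosome 1 the closest pair lay 13.8 kb apart, from 34245551 to 34258231 and from 34271994 to 34282799, and the third, from 34341783 to 34352332, began 59.0 kb after the second. These 3 runs held 5, 5 and 6 peaks of 232 to 625 bp, with median line percentiles of 21.5, 11.7 and 10.8. On chromosome 15, the 7-peak run with long peaks was followed after 51.7 kb by a run of 5 from 102864526 to 102871749, and that after 121.8 kb by the 8-peak run described above. The run in the middle differed from both, with peaks of 201 to 532 bp and a median line percentile of 52.5 against 9.38 and 7.86. By midpoint, the window on chromosome 15 from 102000001 to 103000000 held 103 peaks and 3 runs, namely the first 2 of these and the run of 6 with line 136, 600.4 kb before them. The window on chromosome 1 from 34000001 to 35000000 held 68 peaks and 3 runs. Of 77 pairs of successive runs on a chromosome, 3 were at most 100 kb apart, and the median distance was 10.6 Mb.

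The order of the list appears coarser than its line numbers imply. Over the whole list, 96.6% of lines followed the line before them in genome order, with chromosome names sorted as text. The list thus consisted of 2016 genome-ordered blocks, of which 85 had 100 lines or more and held 72.2% of lines. The largest had 2963 lines. Inside a block the line number follows position, by the way the blocks were formed. Whether the lines of a block are tied in the quantity that ordered the list is not given in the sources used here. The consecutive lines 11926 to 11928 in the run on chromosome 10, and lines 7898 and 7899 in the run of 10 on chromosome 12, fall inside such blocks. Among members 58.1% stood in blocks of 100 lines or more. Blocks were shortest at the top: the median line of the first 10% stood in a block of 19 lines, and that of the last 50% in a block of 1406. With each line replaced by the middle of its block, the median of the members was 26.5 and that of the others 48.6. Even the largest block is a small part of the 58528 lines, so this replacement could move the medians only a little.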

How the data were processed

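The file analysed is a peak list of the anti-Six4 library from the shNS line. The authors deposited it with 3 columns (chromosome, start, end) and no header, score or p-value, so its only units are other than expression: positions and widths in bases. Bowtie, Picard, bedtools, MACS2 2.0 (a peak caller) and the build mm9 are named in the submitters' processing notes without roles or parameters. Threshold, control library and filters are not given there, and read depth is unknown. The gene and promoter tables at hand are of GRCm38, and on 10 of 20 chromosomes peaks reach beyond their last gene, so neither positions nor sequences were taken from them. Shares of peaks at promoters, in exons and in introns and a motif search had been planned and were not run for want of an mm9 reference.

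File starts, which count from 0, are printed counting from 1. Gaps are the next start minus the previous end. Chains were formed with Python 3.11.15, numpy 2.4.6 and pandas 2.3.3, and the chaining was tested on simulated data. Intervals of shares are exact Clopper-Pearson 95% intervals (scipy 1.17.1), and figures were drawn with matplotlib 3.10.9. Peaks were assigned to windows by midpoint. The runs named are all with 8 or more peaks, the one with the earliest line, the 3 most and least covered, the 3 longest and shortest and the 3 nearest pairs. Members and measures were chosen with earlier results of these data known. Peaks of 1 library are not replicates, so no test was made.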

Additional observations from a re-analysis of the deposited data

How the results depend on the processing

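The 9 summary values of the runs were recomputed under 10 other rules, and the 3 on line order also with block middles, a choice made after seeing the data. Of 93 values, 40 stayed within 1.5 times (numbers) or the 95% binomial interval over peaks or runs (medians and shares). The intervals were those of the main rule only, so a value from few peaks could also fall outside by counting error. The other values moved as follows, mostly by construction, since these rules change which peaks are members. Gaps of at most 3000 bp left 9 runs and 48 peaks, with a median width of 299 bp, 8.33% in the first 10% of lines, a median span of 9756 bp and 20.3% of it covered. Gaps of at most 4000 bp left 29 runs and 165 peaks (median line percentile 23.7, 21.8% in the first 10%, 15.2% in the last 50%, span 11141 bp, 18.8% covered). Gaps up to 7500 bp gave 536 runs and 3224 peaks (4.96% of at least 1 kb, line percentile 32.7, 28.5% in the last 50%, span 20337.5 bp, 11.0% covered). Gaps up to 10000 bp gave 1141 runs and 7191 peaks (5.76% of at least 1 kb, line percentile 34.9, 12.2% in the first 10%, 31.5% in the last 50%, span 25632 bp, 8.87% covered). Runs of at least 4 numbered 376 with 1666 peaks (5.70% of at least 1 kb, 25.5% in the last 50%, span 9811 bp), and runs of at least 6 numbered 36 with 246 peaks (15.9% in the last 50%, span 16514 bp). Merging peaks under 500 bp apart left 67 runs (4.79% of at least 1 kb, 16.0% in the last 50%, span 14417 bp). A merged peak took the earliest line of its parts, and its width included the gaps between them. That alone makes merged peaks earlier and wider, inside runs and outside. The first 50% of lines alone gave 45 runs and 259 peaks (width 365 bp, 4.63% of at least 1 kb, line percentile 19.5, 25.1% in the first 10%, 0% in the last 50%, span 14417 bp, 17.5% covered). Distances between midpoints gave 57 runs and 319 peaks (1.25% of at least 1 kb, span 11708 bp).

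The inclusion of chromosome X was not compared with the peaks outside runs. Under each of the other rules members stood earlier in the median than the other autosomal peaks and had a smaller share of peaks of at least 1 kb. Their median width was higher except in the first 50% of lines, where it was 365 against 405 bp. Promoter windows and motif windows were not varied, as neither was run. No paired analysis was possible because the series has 1 library of each kind. Read depth is unknown, so weak peaks that went uncalled inside or between runs cannot be counted.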
